A study of Homo sapiens with 4 samples.

Results

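The sestrins are a family of 3 genes, SESN1, SESN2 and SESN3, and their transcripts were followed in SY5Y neuroblastoma cells treated with SGSS05-NS or with the solvent DMSO. The 3 members are 3 of 57820 gene rows in the count files, and all 3 were among the 16468 genes with enough counts to be tested. They were selected on the difference between treated and control libraries itself, so their fold changes are given as a description, without a p-value. SY5Y is an established human neuroblastoma cell line, labelled here as MYCN wild type. The compound, which the labels call SGSS05-NS and the study calls SGSS05-NS3, is a small-molecule inhibitor of SETD8 (KMT5A), the enzyme that monomethylates histone H4 and the tumour suppressor p53. The study reports that SGSS05-NS3 also inhibits other methyltransferases at low micromolar concentrations. Which target lay behind any change was not tested. The conditions profiled were DMSO and 3 µM SGSS05-NS by the labels, with 2 libraries of bulk RNA each. Both were harvested at 12 h, in the same MYCN wild type line. The study's methods give a lower dose for these cells, but the legend of its expression heatmap of SY5Y gives 3 µM. All values therefore describe 1 line at 1 dose and 1 time.

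Sestrins are stress-inducible proteins that restrain the growth kinase complex mTORC1. In cells short of leucine they bind and hold back GATOR2, the complex that otherwise relieves the brake set by GATOR1 on the Rag GTPases, and they also support the energy sensor AMPK and the removal of KEAP1, the inhibitor of the antioxidant factor NRF2. The paralogs differ in their control. SESN1 is a classic p53 target, SESN2 answers to p53 and also to the stress factors ATF4 and NRF2, and SESN3 is best known as a target of the FOXO factors.

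The gene total of the libraries ranged from 21463105 to 25350204 fragments. The sympathetic neuroblast markers PHOX2A, HAND2, GATA3, DBH and ISL1 lay between 96.2 and 617 CPM (counts per 1000000 fragments assigned to genes, after TMM scaling) in every library, whereas TH, the first enzyme of catecholamine synthesis, had 0 to 2 counts. Summed over these 6 markers the level was 1757 and 1838 CPM with DMSO and 1298 and 1112 CPM with SGSS05-NS. The fibroblast, leukocyte and epithelial markers COL1A1, COL3A1, PTPRC and EPCAM did not exceed 3.57 CPM, and their sum ranged from 4.62 to 5.30 CPM with DMSO and from 6.08 to 6.31 CPM with SGSS05-NS. The part of the marker difference in the sestrin values was not tested. CPM are shares of a library, so more transcript in each cell, a changed mix of cells and a changed total of RNA per cell cannot be told apart.

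The sequence just upstream of the annotated starts is shown for SESN2 and SESN1, the members with the larger fold changes, because both are textbook p53 targets while the p53-type letters stood in only 1 of the windows. The windows are those of RefSeq on GRCh38.p14 (250 bases before and 50 after a start), of which the 250 upstream bases are printed 5′ to 3′. SESN2 has 1 window (plus strand, chr1:28259268-28259517). For SESN1 the start of the long transcript (minus strand, chr6:109094847-109095096) and the most downstream start (minus strand, chr6:109008989-109009238) are given. Capitals mark the match to a motif.
SESN2: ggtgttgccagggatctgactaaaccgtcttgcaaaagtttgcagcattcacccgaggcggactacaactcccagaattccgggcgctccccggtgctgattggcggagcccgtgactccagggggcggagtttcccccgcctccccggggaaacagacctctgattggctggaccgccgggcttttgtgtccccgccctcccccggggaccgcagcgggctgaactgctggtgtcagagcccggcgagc
SESN1 long start: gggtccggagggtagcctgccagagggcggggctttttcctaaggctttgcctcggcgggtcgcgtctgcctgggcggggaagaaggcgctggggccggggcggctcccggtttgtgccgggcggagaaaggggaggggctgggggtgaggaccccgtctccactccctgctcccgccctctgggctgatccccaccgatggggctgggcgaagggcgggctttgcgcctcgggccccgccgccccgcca
SESN1 short start: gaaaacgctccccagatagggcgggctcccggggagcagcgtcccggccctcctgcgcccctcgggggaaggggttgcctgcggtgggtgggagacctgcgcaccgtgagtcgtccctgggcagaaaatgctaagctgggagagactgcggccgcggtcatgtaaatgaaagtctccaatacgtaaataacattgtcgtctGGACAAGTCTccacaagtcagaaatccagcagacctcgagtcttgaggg

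The capitals in the short-start window of SESN1 are a p53 decamer, the unit that p53 binds in pairs, and began 49 bases before the start. In all, 6 motifs were searched on both strands in the full 300 bases. These were the p53 decamer by its consensus, the ATF4 element TGATGNAA, the antioxidant element TGACNNNGC bound by NRF2, the FOXO element GTAAACA, the cyclic AMP response element TGACGTCA and the E-box CACGTG. The p53 decamer occurred in 6.63% of all 35116 RefSeq windows. The remaining SESN1 window, 3 bases from another short transcript's start, held 1 antioxidant element, which occurred in 13.3% of windows. The windows of SESN2, of the long SESN1 start and of SESN3 held none of the 6 motifs, whose frequency over all windows otherwise was 3.62% for the ATF4 element, 3.42% for the FOXO element, 1.85% for the cyclic AMP response element and 7.26% for the E-box. The SESN3 window holds the annotated starts of 3 protein-coding transcripts but not that of the reference (MANE) transcript. A match or its absence describes these letters in these windows and no more.

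On GRCh37, the build of the counts, SESN2 (ENSG00000130766.4) lies on chromosome 1 from 28586029 to 28609002 on the plus strand, with a single annotated transcript of 10 exons. SESN1 (ENSG00000080546.9) lies on chromosome 6 from 109305512 to 109416049 on the minus strand and has 7 annotated transcripts, 3 of them protein coding. Its long coding transcript starts 85294 and 85858 bases upstream of the RefSeq starts of the short ones, and counts per gene cannot say which start was used. SESN3 (ENSG00000149212.6) lies on chromosome 11 from 94898677 to 94965705 on the minus strand. The map of annotated transcripts shows the contrast between the compact SESN2 and its longer paralogs.

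**Figure D1:**
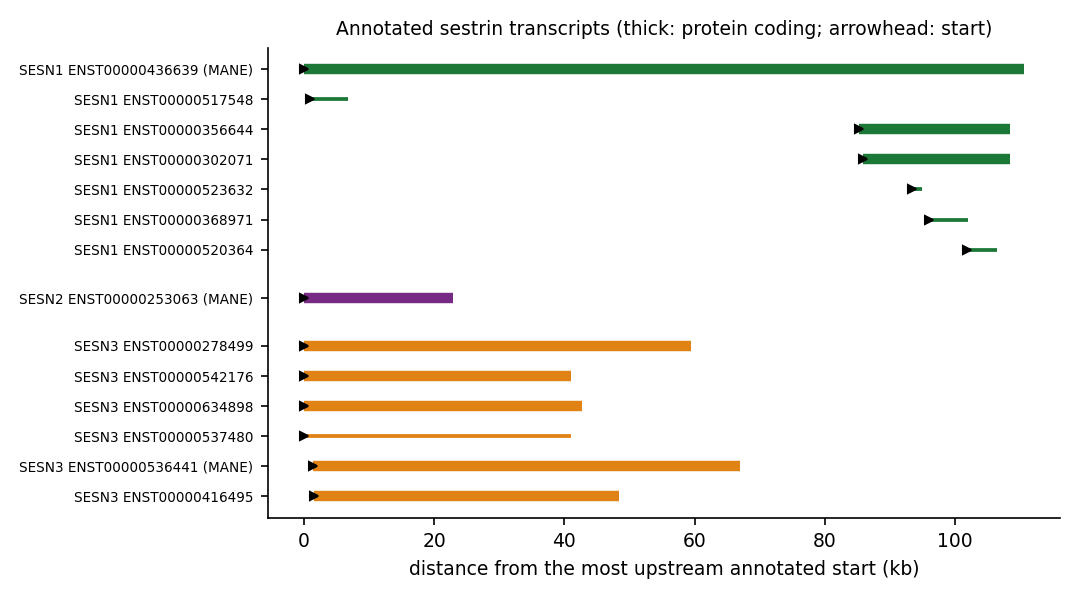
Annotated transcripts of the sestrin genes, drawn by distance in kb from the most upstream annotated start of each gene (x axis), one line per transcript, thick for protein coding and with an arrowhead at the start. SESN2 has 1 transcript, whereas the 2 short coding transcripts of SESN1 start far inside the long one.

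SESN2 showed the largest difference of the family. Its counts were 184 and 152 with DMSO and 2037 and 2431 with SGSS05-NS, which is 7.33 and 6.51 CPM against 91.8 and 103 CPM. Both treated libraries were far above both controls, and the lower treated value was 12.5 times the higher DMSO value. The group means were 6.92 ± 0.585 CPM (SD, n = 2) and 97.6 ± 8.19 CPM (SD, n = 2), a 14.1-fold ratio. The fitted log2 fold change was 3.82 with a standard error of 0.12, and 69 of the 16468 tested genes had a higher one. No annotated gene overlapped SESN2, and its fragments on the opposite strand numbered 0 to 6 per library.

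SESN1 came next. It had 717 and 605 counts with DMSO and 2199 and 2106 with SGSS05-NS, or 28.6 and 25.9 CPM against 99.1 and 89.5 CPM. The lower treated library held 3.13 times the level of the higher control. The means of 27.2 ± 1.90 CPM and 94.3 ± 6.75 CPM (SD, n = 2 each) differed 3.46-fold, with a log2 fold change of 1.79 and a standard error of 0.10. A higher log2 fold change was found in 493 tested genes. An antisense noncoding gene (ENSG00000271730) shares 363 exonic bases with SESN1 but had 0 or 1 count per library, and counting without regard to strand, which discards fragments in shared exons, gave 600 and 507 counts with DMSO and 1758 and 1702 with SGSS05-NS.

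SESN3 differed least between the conditions. It had 1271 and 1235 counts with DMSO and 1788 and 1755 with SGSS05-NS, corresponding to 50.7 and 52.9 CPM and to 80.6 and 74.6 CPM. The lower treated value was 1.41 times the higher control value. Means were 51.8 ± 1.56 CPM and 77.6 ± 4.20 CPM (SD, n = 2 each), a 1.50-fold ratio and a log2 fold change of 0.58 with a standard error of 0.09. This was exceeded by 2836 tested genes. LNCRNA-IUR, an antisense noncoding gene that shares 98 exonic bases with SESN3, had 29 and 38 counts with DMSO and 32 and 30 with SGSS05-NS, and its log2 fold change of -0.03 did not pass the test (adjusted p = 0.94, edgeR quasi-likelihood test).

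**Figure D2:**
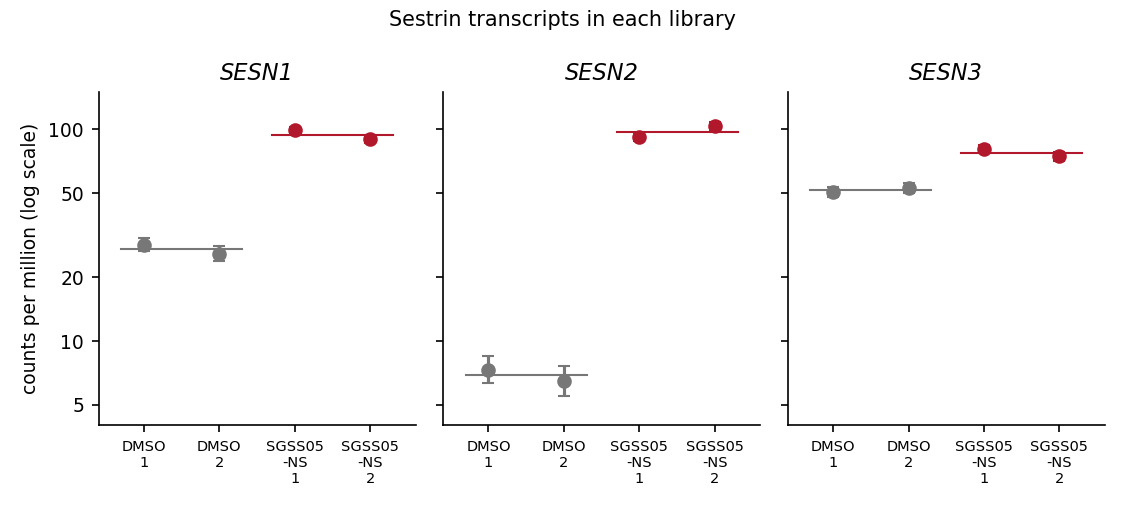
Level of each sestrin in CPM (y axis, log scale) in each of the 4 libraries (x axis), with exact 95% Poisson intervals that cover counting error only; horizontal lines are group means. Treated libraries (red) lie above DMSO libraries (grey) in every panel, from 6.92 to 97.6 CPM on average for SESN2 and from 51.8 to 77.6 CPM for SESN3.

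The precision of single libraries was set by these counts. The exact 95% Poisson interval for SESN2 with DMSO, the smallest counts of the family, ran from 6.31 to 8.47 CPM in replicate 1 and from 5.51 to 7.63 CPM in replicate 2, so these replicates overlapped. With SGSS05-NS the intervals of SESN2 were 87.8 to 95.9 CPM and 99.3 to 108 CPM, apart from each other. Those of SESN1 were 95.0 to 103 CPM and 85.8 to 93.4 CPM and did not overlap either, so the treated replicates of both genes differed by more than counting error. The same intervals for SESN3 were 76.9 to 84.4 CPM and 71.2 to 78.2 CPM, which overlapped. For each sestrin the gap between conditions was wider than the gap between replicates. The members were selected on this difference, and the share of all tested genes with such a gap was not counted.

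Levels of different genes can be compared only per length, here as CPM per kb of merged exon. With DMSO the order was SESN3 (4.89 ± 0.147), SESN1 (3.74 ± 0.261) and SESN2 (2.00 ± 0.169; SD, n = 2 each), and no library of one gene overlapped the next. With SGSS05-NS the order was SESN2 (28.2 ± 2.36), SESN1 (13.0 ± 0.927) and SESN3 (7.33 ± 0.397), again without overlap. Per kb of merged exon, the lowest-expressed sestrin of the control cells was thus the highest in treated cells. Without division by length, SESN2 was also lowest with DMSO (8.47% and 7.63% of the family's fragments). With SGSS05-NS it held 33.8% and 38.6% and SESN1 36.5% and 33.5%, so their order differed between replicates. The merged exons of SESN1 cover 7276 bases, its short coding transcripts 2718 and 2676. Which transcripts were present was not measured. Division by a short transcript would raise the per-kb level of SESN1, so the order given here rests on merged exons. Among 16042 tested genes with an annotated length, the per-kb level of SESN2 exceeded 37.6% of genes with DMSO and 92.15% with SGSS05-NS, that of SESN1 50.37% and 80.05%, and that of SESN3 56.67% and 66.89%.

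The makeup of the family shifted accordingly. SESN2 accounted for 19.6% and 18.0% of the summed per-kb level in the DMSO libraries and for 55.5% and 60.7% in the SGSS05-NS libraries. The share of SESN3 was 44.2% and 47.9% with DMSO and 16.0% and 14.3% with SGSS05-NS, although its own level was higher. SESN1 varied less, 36.2% and 34.1% with DMSO and 28.5% and 25.0% with SGSS05-NS. The summed level of all 3 was 10.6 ± 0.282 CPM per kb with DMSO and 48.5 ± 1.04 with SGSS05-NS (SD, n = 2 each), 4.56-fold higher.

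**Figure D3:**
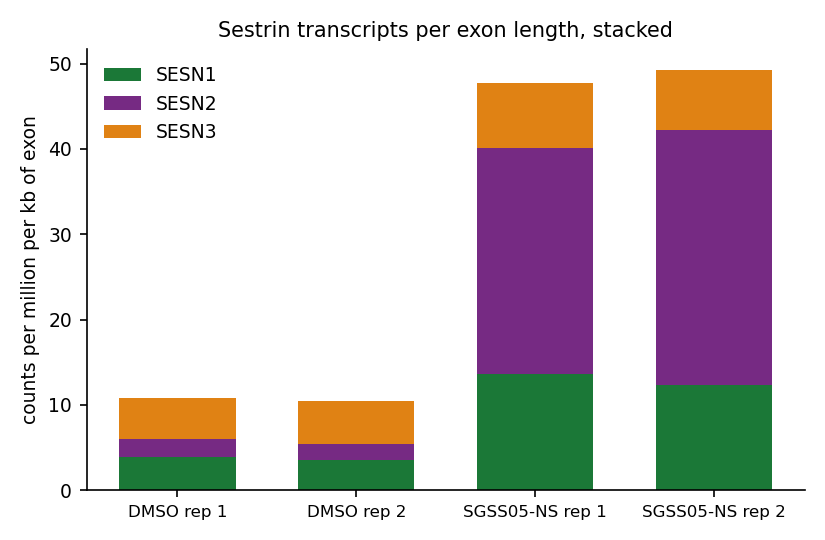
Level of SESN1, SESN2 and SESN3 in CPM per kb of merged exon (y axis), stacked for each of the 4 libraries (x axis). The total goes from a mean of 10.6 with DMSO to 48.5 with SGSS05-NS, and SESN2 (purple) changes from the smallest to the largest section.

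The machinery through which sestrins act was then examined by list. Over all tested genes, 6.37% were called higher and 8.14% lower with SGSS05-NS (edgeR quasi-likelihood test, Benjamini-Hochberg adjusted p below 0.001), and the median log2 fold change was 0.01. Of 62 tested genes of the sestrin pathway, 8 were called higher (12.9%) and 3 lower (4.84%), with a median log2 fold change of -0.01. No pathway gene had a log2 fold change above that of SESN2, and 3 were above that of SESN1.

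The first list held GATOR2, to which sestrins bind, with GATOR1 and its lysosomal anchor KICSTOR. Of these 12 genes, 0 were called by edgeR's quasi-likelihood test, 4 had an unadjusted p below 0.05, DESeq2 and limma voom called 0, and edgeR's likelihood ratio test called KICS2 lower. Their log2 fold changes ranged from -0.67 for KICS2 to 0.33 for ITFG2, around a median of -0.06. Among 17 amino acid sensor, Rag and Ragulator genes, 2 rose (11.8%) and 15 did not pass. Over all tested genes 6.37% were called higher and 8.14% lower. FLCN (folliculin, which activates RRAGC as its GTPase-activating protein) went from 12.3 and 11.7 CPM to 23.2 and 24.2 CPM, a log2 fold change of 0.98 (adjusted p = 5.9e-05, edgeR). RRAGC, one of the Rag GTPases that bring mTORC1 to the lysosome, went from 15.2 and 19.4 CPM to 34.1 and 33.6 CPM (log2 fold change 0.97, adjusted p = 1.0e-04, edgeR).

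In the mTOR complexes and their TSC brake, 2 of 13 tested genes rose and 2 fell (15.4% each). The shares over all tested genes were 6.37% and 8.14%. DDIT4 (REDD1), another stress-induced inhibitor of mTORC1, had 23.5 and 21.4 CPM with DMSO and 81.5 and 100 CPM with SGSS05-NS, a log2 fold change of 2.02 (adjusted p = 2.4e-07, edgeR). RPTOR, which encodes the mTORC1 subunit raptor, fell from 87.3 and 91.1 CPM to 26.1 and 29.8 CPM, a log2 fold change of -1.67 (adjusted p = 3.2e-07, edgeR). The other called genes, singled out after their values were seen, were PRR5, a subunit of mTORC2, with a log2 fold change of 1.49 and MAPKAP1, which encodes the mTORC2 subunit SIN1, with -1.13. RPTOR and MAPKAP1 span 421.6 and 269.8 kb. Among tested genes over 300 kb, 53.8% were called lower, and among those of 100 to 300 kb, 20.5%. The kinase gene MTOR had a log2 fold change of -0.42 and was not called by edgeR's quasi-likelihood test (adjusted p = 0.0031) or limma voom, but was called lower by edgeR's likelihood ratio test and DESeq2.

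Of 7 tested AMPK genes 6 did not pass and 1 rose (14.3%, beside 6.37% of all tested genes). It was the regulatory subunit gene PRKAB1, with a log2 fold change of 0.89 (adjusted p = 1.7e-04, edgeR). Among 13 redox partners 3 rose (23.1%) and 1 fell (7.69%), beside 6.37% and 8.14% of all tested genes. SQSTM1, which encodes the autophagy receptor p62 that works with sestrins on KEAP1, went from 57.2 and 52.4 CPM to 334 and 310 CPM, a log2 fold change of 2.56 (adjusted p = 9.1e-09, edgeR). PRDX3, a mitochondrial peroxiredoxin, fell by 0.59 on the log2 scale (adjusted p = 3.2e-04, edgeR). The autophagy kinase gene ULK1 (0.71) and the thioredoxin reductase gene TXNRD1 (0.66), also called higher, were singled out after their values were seen. KEAP1 itself had a log2 fold change of 0.41 and was not called by edgeR's quasi-likelihood test (adjusted p = 0.0031), DESeq2 or limma voom, but was called higher by edgeR's likelihood ratio test.

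Transcription factor genes linked to the control of the paralogs were considered next. Of 10 tested, 3 rose (30.0%, beside 6.37% of all tested genes) and 7 did not pass. ATF4 went from 138 and 144 CPM to 213 and 243 CPM (log2 fold change 0.69, adjusted p = 1.7e-04, edgeR), and its partners CEBPB and DDIT3 (CHOP) had log2 fold changes of 2.60 and 4.61. NFE2L2, the gene of NRF2, had 33.7 and 30.1 CPM with DMSO and 59.2 and 44.8 CPM with SGSS05-NS, and its log2 fold change of 0.71 did not pass the threshold (adjusted p = 0.0011, edgeR quasi-likelihood test), while edgeR's likelihood ratio test and DESeq2 called it higher.

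The FOXO genes, whose products are known regulators of SESN3, were not among those called. FOXO3 had 106 and 109 CPM with DMSO and 109 and 104 CPM with SGSS05-NS, a log2 fold change of -0.01 (adjusted p = 0.91, edgeR). The log2 fold changes of FOXO1, FOXO4 and FOXO6 were 0.51, 0.29 and 0.96 (adjusted p = 0.13, 0.089 and 0.064, edgeR). Counts were low for FOXO6 (24 and 12 with DMSO, 42 and 24 with SGSS05-NS) and FOXO1 (33 and 41, 48 and 52). Their standard errors were 0.395 and 0.261. HIF1A and TP73 had log2 fold changes of -0.47 and -0.16 (adjusted p = 0.0019 and 0.28, edgeR quasi-likelihood test); HIF1A was called lower by the likelihood ratio test and DESeq2. TP63 had 0 counts. These are transcript levels, and the activity of p53, ATF4, NRF2 or FOXO proteins was not measured by them.

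Transcripts of genes that textbooks give as targets of the same factors were set beside each paralog. These lists were chosen with earlier results of these data known. Control of any listed gene or sestrin by these factors was not tested. Of 25 p53 targets, 22 rose (88.0%, beside 6.37% of all tested genes) and 3 did not pass, with a median log2 fold change of 1.73. GDF15, a secreted stress cytokine, went from 1.24 and 0.899 CPM to 164 and 114 CPM (log2 fold change 7.02), and the antiproliferative gene BTG2 from 6.70 and 4.88 CPM to 95.3 and 88.6 CPM (log2 fold change 3.98). SESN1, with 1.79, stood near the middle of this list, 12 of the 25 being above it, and 4 were above SESN2. Of 24 tested ATF4 targets, 15 rose (62.5%) and 9 did not pass, with a median of 0.96. Here 2 genes, DDIT3 and the stress factor gene ATF3 (4.43), were above SESN2.

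Of 20 NRF2 targets, 11 rose (55.0%) and 1 fell, with a median log2 fold change of 0.79. HMOX1, which encodes heme oxygenase, went from 0.558 and 0.685 CPM to 67.3 and 56.5 CPM (log2 fold change 6.63), and 2 of the 20 were above SESN2. The gene that fell was the drug transporter gene ABCC1 (-0.66), singled out after its value was seen. Over all tested genes 6.37% were called higher and 8.14% lower. Of 14 tested FOXO targets, 2 rose (14.3%) and 1 fell (7.14%), with a median of 0.38. They were the autophagy gene GABARAPL1 (2.62), the transcription factor gene KLF6 (0.89) and, with a lower level, the insulin receptor gene INSR (-0.64), the last singled out after its value was seen. SESN3, with 0.58, was exceeded by 3 of these 14. No direct test compared the lists, and 8 genes stood in 2 of them.

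**Figure D4:**
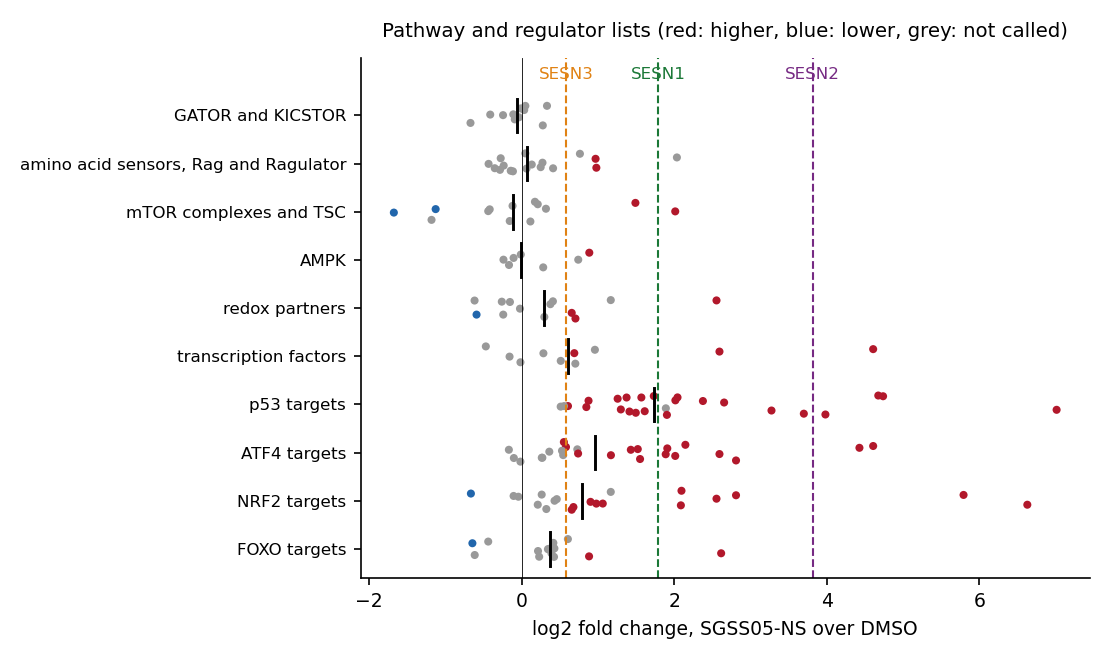
Log2 fold change of SGSS05-NS over DMSO (x axis) of each tested gene in 5 sestrin pathway lists, the transcription factors and 4 target lists (rows); red points were called higher, blue lower and grey neither, black bars are medians and dashed lines mark the sestrins. The p53 targets, with a median of 1.73, lie around SESN1, while GATOR and KICSTOR genes lie around 0.

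The sestrin genes differ widely in length, and the fold change of a gene with this treatment went with its length. SESN2 spans 22.97 kb, SESN3 67.03 kb and SESN1 110.5 kb. Over 16042 tested genes the Spearman correlation of the log2 fold change with genomic length was -0.220, a description across genes of the same 4 libraries, which are not independent replicates. The fall was not steady, since the median log2 fold change was 0.10 for the 4776 genes under 10 kb, 0.17 for genes of 10 to 30 kb, 0.02 for 30 to 100 kb, -0.33 for 100 to 300 kb and -1.03 for genes over 300 kb.

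Each sestrin was set beside genes between 0.5 and 2 times its own length. The 5305 genes around the length of SESN2 had a median log2 fold change of 0.14, and 24 were above SESN2. The 4926 genes around SESN3 had a median of -0.03, and 561 were above it. The 3849 genes around SESN1 had a median of -0.16, with 2.83% called higher and 10.9% lower, and 53 were above it. SESN1, the longest of the family, therefore lay 1.95 above the median of genes of its length, SESN2 3.68 above and SESN3 0.61 above. The order of the 3 fold changes did not follow the order of these whole-gene lengths, since the longest gene came second. The short coding transcripts of SESN1 have RefSeq starts 85294 and 85858 bases downstream of the long start, so the length transcribed may be much shorter. Which start was used was not measured, and a comparison at a shorter length of SESN1 was not made.

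**Figure D5:**
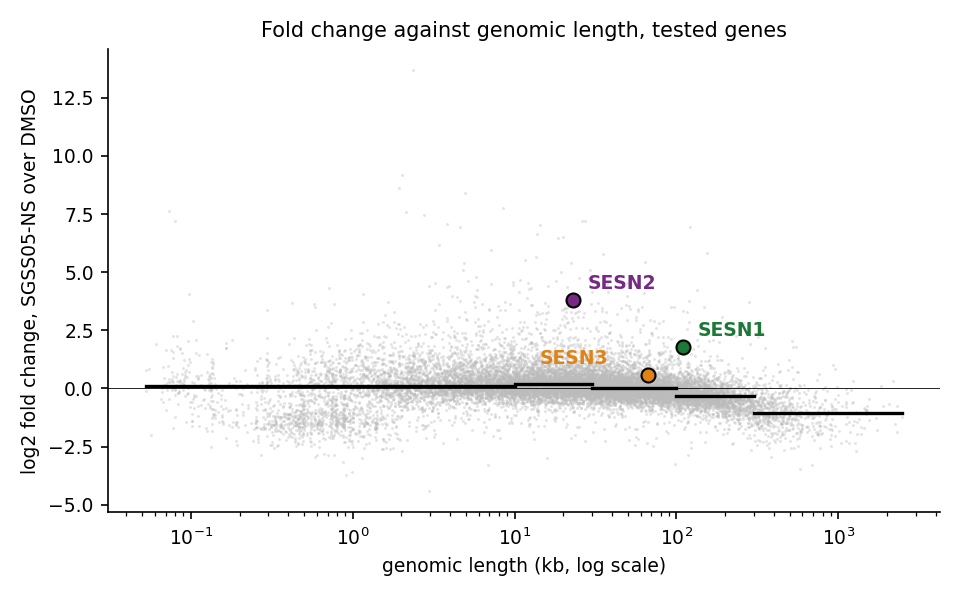
Log2 fold change of SGSS05-NS over DMSO (y axis) against genomic length in kb (x axis, log scale) for 16042 tested genes (grey), with the medians of 5 length ranges (black lines). The sestrins lie above the median of their range, by most for SESN2 at 22.97 kb, while the median falls to -1.03 beyond 300 kb. SESN1 is placed at its whole annotated length, although it has shorter coding transcripts.

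Genes with the profile most like each sestrin were sought among 11324 genes by the Euclidean distance of centred log2 CPM over the 4 libraries. For SESN2 they were PLK3 (distance 0.222), a stress-activated kinase gene, ZFAND2A (0.244), an arsenite-inducible zinc finger gene, and BTG2 (0.315). PLK3 had 4.03 and 4.11 CPM with DMSO and 50.3 and 55.6 CPM with SGSS05-NS. For SESN1 they were PLCD3 (0.117), LRRTM2 (0.119) and the immediate early gene JUNB (0.146), and for SESN3 RNF208 (0.0119), PLPP5 (0.0241) and ZNF577 (0.0245). Over 4 libraries such a distance mainly reflects the size of the fold change.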

How the data were processed

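Bulk RNA of SY5Y cells was sequenced in 2 libraries per condition, which the study's methods call independent biological replicates. The authors ran Trimmomatic 0.30 on the reads, mapped to hg19 by STAR 2.4.2a, and deposited gene-level counts of fragments, raw, both unstranded and by strand. The column of the strand holding most fragments was used (4.64% to 5.05% fell on the other). The labels name a TruSeq RNA kit and the methods a stranded total RNA kit with ribosomal RNA removal. The labels write SGSS05-NS for the compound, whereas the series title and the study write SGSS05-NS3 and use SGSS05-NS for a related compound. Symbols and lengths came by gene ID from GENCODE 44 on GRCh37 (2282 IDs unmatched), whereas the counts were made with GENCODE 19. Promoter windows came from RefSeq, GRCh38.p14. In this work edgeR 4.0.16 in R 4.3.3 (filterByExpr, TMM, quasi-likelihood test, adjusted p below 0.001) was fitted to all 4 libraries and tested on simulated data. Standard errors are approximate: the size of the log2 fold change over the square root of the F statistic of that test. For the sestrins they serve as description only. Rows that name no gene stayed out of the totals. Reads assigned to no feature were 12.4% and 12.3% of fragments with DMSO and 16.1% and 15.3% with SGSS05-NS. The cause of this difference was not tested. Python 3.11.15 and pandas 2.3.3 made the summaries. Alternatives used DESeq2 1.42.0, voom of limma 3.58.1, edgeR's likelihood ratio test, other scalings and filters, unstranded counts, a replicate block and leaving out each library. Named genes were the sestrins, the transcription factors, the 2 called genes of smallest p per other list and the 3 most alike genes per sestrin (log2 of CPM plus 0.5, mean of at least 2). The members and lists were chosen with earlier results of these data known. CASTOR2, TXNIP and SOD2 were not matched by ID and are not analysed here. Another factor gene and another marker are not reported here. Intervals and p-values cover these libraries only.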

Additional observations from a re-analysis of the deposited data

How the results depend on the processing

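The log2 fold changes of the sestrins kept their sign in all 13 alternatives, from 1.69 to 1.83 for SESN1, 3.78 to 3.85 for SESN2 and 0.55 to 0.62 for SESN3, and from 1.70 to 1.86, 3.71 to 3.90 and 0.52 to 0.64 when 1 library was left out. The numbers of called genes moved most. Genes called higher numbered 2022 by edgeR's likelihood ratio test, 2034 without a filter on low counts, 1759 with a replicate block and 3728 at an adjusted p below 0.05, against 1049 as reported, and genes called lower 2267 by the likelihood ratio test, 2570 without the filter and 3903 at 0.05, against 1341. Pathway genes called lower were 7 by the likelihood ratio test, 5 by DESeq2, 8 without the filter and 13 at 0.05, where 20 were called higher. Among transcription factors 1, HIF1A, was called lower by the likelihood ratio test, by DESeq2, without the filter and at 0.05, and 0 to 1 with 1 library left out. Among NRF2 targets 0 were called lower when scaled by library size only, and 0 to 1 with 1 library left out (0 without DMSO replicate 2 or SGSS05-NS replicate 2). FOXO targets called higher were 7 at 0.05, and those called lower were 2 by the likelihood ratio test, DESeq2, the replicate block and unstranded counts, 0 by library size only, 3 without the filter and at 0.05, and 1 to 2 with 1 library left out (2 without DMSO replicate 2 or SGSS05-NS replicate 1). The correlation with length was -0.0885 for exon length, -0.281 for genes with at least 10 counts in every library and -0.217 to -0.178 with 1 library left out. Per kb of the longest transcript SESN1 had 4.81 with DMSO and 16.7 with SGSS05-NS, and SESN3 5.41 and 8.11. From unstranded counts SESN1 had 3.29 and 10.6, and SESN3 5.13 with DMSO. The order of the paralogs in each condition was unchanged by these length and strand choices. No shorter length was tried, although SESN1 has coding transcripts of 2718 and 2676 bases and SESN3 has a coding transcript of 1710 bases. Such lengths would give higher per-kb levels of SESN1 and SESN3, so the order is shown only for the lengths tried. The cause of the other differences was not tested. Whether the replicate numbers mark true pairs cannot be told from 2 libraries per condition. Deviations of same-numbered libraries correlated by 0.0526 over 16468 genes in the 2 pairs. With the replicate block 1759 genes were called higher and 2007 lower, against 1049 and 1341 without it. The block gave 2 AMPK genes higher in place of 1 and 2 FOXO targets lower in place of 1. It left the other list counts within 1.5 times. Depth limited SESN2 with DMSO most, at 152 to 184 counts.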
